A study of Mus musculus with 6 samples.

Results

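The genes described here encode the cyclins, kinases, checkpoint proteins, kinetochore and condensin subunits and spindle proteins that carry a cell through mitosis. They form a list of 46 genes, and a gene was read only from a probe set that the platform annotation pairs with that gene alone. Of the 46, 43 had such a probe set and all of these lay above the filter on dim genes, out of 22180 genes on the arrays and 15526 tested. Ccnf and Ncapg lay only on probe sets shared with another gene, and Ccnb1 was not named by the annotation, so these 3 were not analysed here. Sgol1 was matched under its current symbol, Sgo1.

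The cells came from mouse acute lymphoblastic leukaemia of the B lineage (B-ALL) with the BCR-ABL oncogene. A group of 3 samples received the vehicle dimethyl sulphoxide (DMSO), and a group of 3 received 312 nM dihydroartemisinin (DHA), to which artemisinin antimalarials are converted in the body, for 4 h. The growth protocol covers p185+ and p185T315I+ lines that are Arf-/- or p53-/-, and the labels do not say which of these was on the arrays. The extraction protocol also mentions 2 h, and the titles of the vehicle samples give no time. All 6 samples share the BCR-ABL background, and the labels do not say whether they came from separate cultures, so the spread behind the p-values may be technical. The series title links DHA to repression of MCL-1 and to sensitivity to navitoclax, and the comparison below asks how mitotic transcripts differed in the same cells.

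Entry into mitosis is driven by CDK1 bound to A- and B-type cyclins, which CDC25 phosphatases activate and the kinases PLK1 and Aurora A reinforce. The spindle checkpoint, built on BUB and MAD proteins at kinetochores, restrains CDC20 and the anaphase-promoting complex (APC/C) until every chromosome is attached. Transcription of many of these genes peaks in G2 and mitosis, under FOXM1, the MuvB complex, B-MYB and NF-Y, so their RNA level in a growing culture follows the share of cells in those phases as well as the output per cell. In bulk RNA, fewer cells in a phase and less RNA per cell cannot be told apart.

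After 4 h of DHA, most mitotic genes had slightly lower values, and a single one, Ndc80, had DHA arrays that all lay above the vehicle arrays. The log2 fold change (DHA minus vehicle) was below 0 for 33 of the 43 tested genes, against 48.8% of all genes tested, and its median was -0.064, against 0.0027 over all genes. No gene of the list passed limma's test across all genes (p adjusted by Benjamini-Hochberg, threshold 0.05), which 14 genes in all, or 0.0902%, passed. The smallest adjusted p in the list was 0.0660, for Ndc80. At an unadjusted limma p at or under 0.05 there were 10 lower genes, or 23.3% of the list, against 6.08% of all genes, and 1 higher gene, against 5.94%. All 10 of these lower genes also had DHA values that lay wholly under the vehicle values, which held for 5.26% of all genes. The 3 DHA arrays all lay under the 3 vehicle arrays for 14 genes, or 32.6%, against 8.19% of all genes, and all above them for Ndc80 alone, against 7.64%. On leaving out 1 array, the count with separate lower groups ranged from 14 to 25, where fewer arrays separate more easily by construction. It was 14 without DHA replicate 1, against 11.8% of all genes, and 25 without vehicle replicate 1, against 11.9%.

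Differences were small. Of the 43, 17 were lower by at least 0.1 on the log2 scale (16.6% of all genes) and 2 were higher by at least as much (17.3% of all genes). The range ran from -0.46 for Prc1, the 37th lowest of the 15526 genes, to 0.54 for Ndc80, the 65th highest. By role, the median was -0.20 for the mitotic kinases, -0.14 for spindle genes and -0.11 for midzone and cytokinesis genes, and -0.0032 for condensin subunits, topoisomerase II and Ki-67. Whether these roles differ from each other was not tested.

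**Figure D1:**
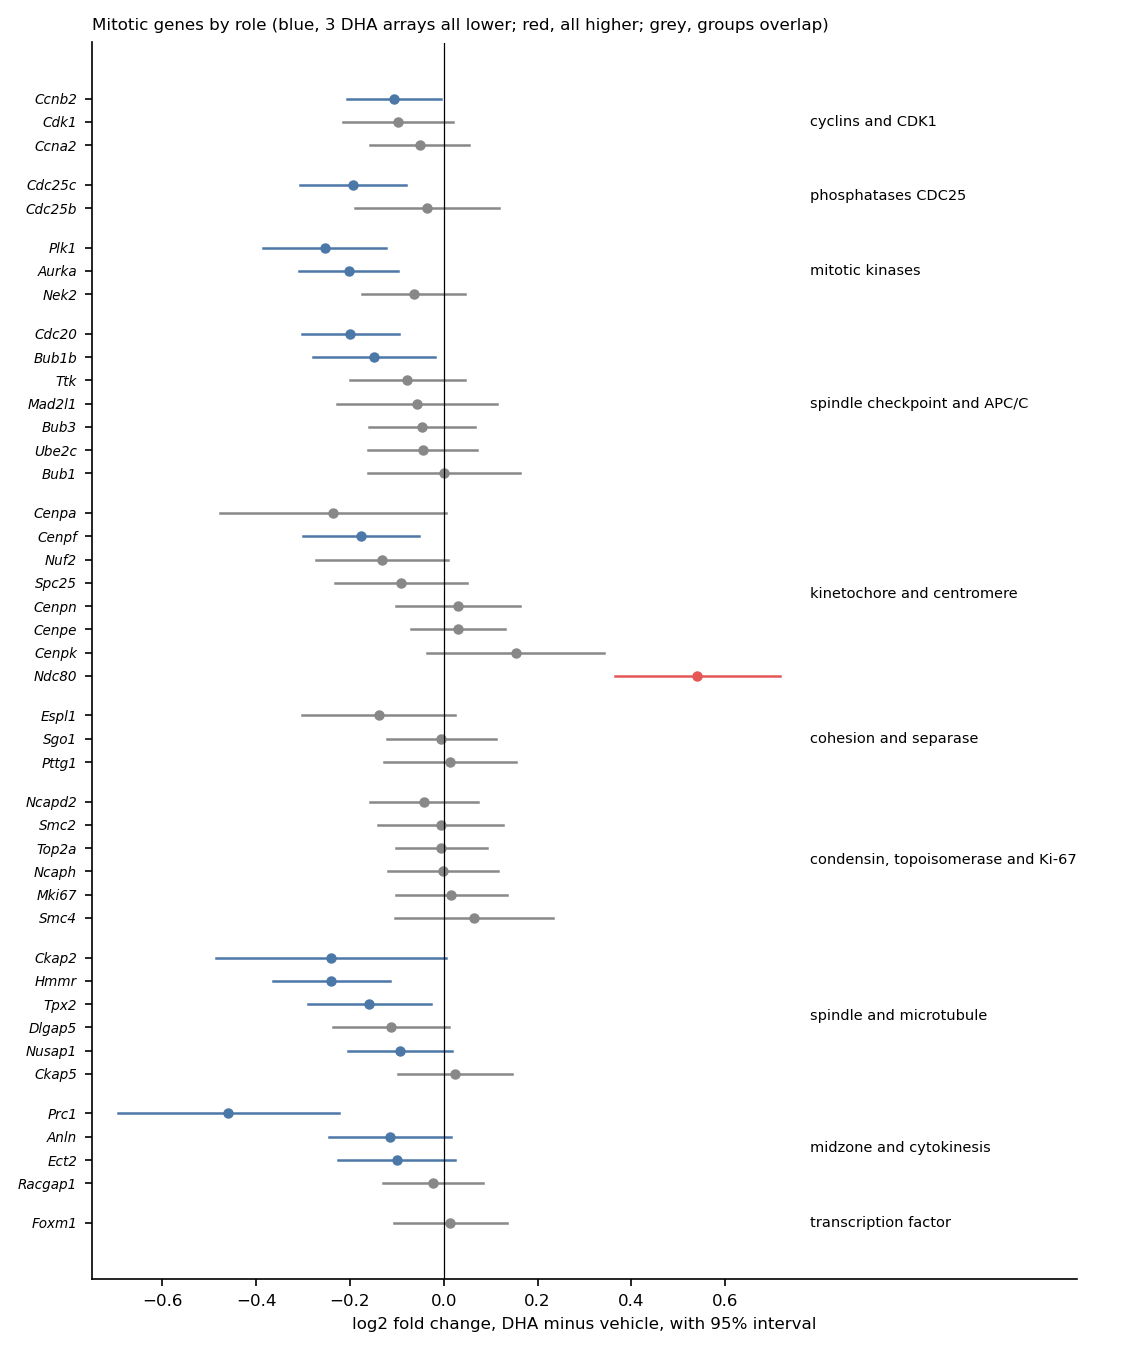
Log2 fold change of each of the 43 mitotic genes (DHA minus vehicle, horizontal axis) with limma's 95% interval, arranged by role; blue marks genes whose 3 DHA arrays all lie under the vehicle arrays, red the reverse and grey overlapping groups. Of the 43 points, 33 lie to the left of 0, Prc1 (-0.46) is farthest left and Ndc80 (0.54) is the only red point.

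Promoters of these genes shared sequence features that played no part in choosing them. RefSeq windows (build GRCm38.p6) were found for 40 of the 46 genes, and the 250 bases before each start site were searched on both strands for the CCAAT box, bound by NF-Y, and for TTTGAA, the core of the cell cycle homology region (CHR) that MuvB binds. The CCAAT box was present in 32 of 40 genes, or 80.0%, against 37.5% of all genes with a window. Among tested genes it was present in 29 of 37 (78.4%), against 39.0%. TTTGAA was present in 17 of the 40, or 42.5%, against 18.3% of all genes, and in 15 of the 37 tested (40.5%), against 13.1%. Its share was 33.3% for passenger and kinesin genes and for MuvB, DREAM and MYB regulators, and 30.0% for cohesin genes. It was 26.9% for other kinetochore genes, 14.3% for mitotic entry regulators and for replication genes, and 12.5% for APC/C genes. Condensin II had 2 of 3. All 17 mitotic genes with TTTGAA also held a CCAAT box, as did 40.2% of all genes with TTTGAA and 43.7% of the tested genes with it. A pair of CCAAT boxes in the same direction with starts 30 to 34 bases apart stood in 7 genes (17.5%), against 1.21% of all genes. Among tested genes it stood in 6 of 37 (16.2%), against 1.97%. This spacing was chosen after the windows were seen. The 7 were Aurka, Ccnb1, Ccnb2, Cdk1, Hmmr, Spc25 and Ube2c. The related hexamer TTTAAA, also added later, stood in 12.5%, against 13.7% of all genes, and in 10.8% of the tested mitotic genes, against 10.1%. Neighbouring matches can share a base and were counted separately, a match is a description and not a binding site, and genes with several start sites were counted once if any window matched.

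Shown here are the 150 bases before the start of 6 genes with separate lower groups, of Cdk1 and Top2a, which carry many matches and differed little or not detectably, and of Ndc80, the gene with separate higher groups. Each is read 5′ to 3′ on the gene's own strand, and capitals mark the CCAAT box (which reads ATTGG when it lies on the other strand) and the CHR core TTTGAA (which then reads TTCAAA). Prc1 has a second start site downstream, from which a further TTTGAA is counted that runs across the end of the stretch shown.
Prc1, chr7:80294301-80294450, + strand: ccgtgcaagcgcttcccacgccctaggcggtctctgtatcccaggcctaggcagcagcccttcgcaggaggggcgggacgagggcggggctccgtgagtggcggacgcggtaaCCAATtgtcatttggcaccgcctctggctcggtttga
Plk1, chr7:122159285-122159434, + strand: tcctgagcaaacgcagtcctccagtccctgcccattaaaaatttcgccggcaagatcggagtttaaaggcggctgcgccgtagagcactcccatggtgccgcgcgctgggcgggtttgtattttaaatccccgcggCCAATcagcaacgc
Aurka, chr2:172370571-172370720, - strand: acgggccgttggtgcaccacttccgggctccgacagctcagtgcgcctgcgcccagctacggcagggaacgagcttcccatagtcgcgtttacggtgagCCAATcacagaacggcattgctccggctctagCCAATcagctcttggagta
Cdc20, chr4:118437344-118437493, - strand: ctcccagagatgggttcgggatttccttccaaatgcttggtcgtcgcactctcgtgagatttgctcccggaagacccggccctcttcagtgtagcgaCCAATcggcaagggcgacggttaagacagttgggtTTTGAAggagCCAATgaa
Hmmr, chr11:40733438-40733587, - strand: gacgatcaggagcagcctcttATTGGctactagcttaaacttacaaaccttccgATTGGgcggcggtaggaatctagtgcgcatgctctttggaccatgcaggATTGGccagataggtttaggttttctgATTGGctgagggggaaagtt
Ccnb2, chr9:70421555-70421704, - strand: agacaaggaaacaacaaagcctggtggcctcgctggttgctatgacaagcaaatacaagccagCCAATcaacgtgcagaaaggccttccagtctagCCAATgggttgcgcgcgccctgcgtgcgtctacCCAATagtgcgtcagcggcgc
Cdk1, chr10:69352913-69353062, - strand: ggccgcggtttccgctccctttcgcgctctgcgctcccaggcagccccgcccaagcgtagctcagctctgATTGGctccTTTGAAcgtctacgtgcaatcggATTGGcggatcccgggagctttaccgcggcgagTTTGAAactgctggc
Top2a, chr11:99024190-99024339, - strand: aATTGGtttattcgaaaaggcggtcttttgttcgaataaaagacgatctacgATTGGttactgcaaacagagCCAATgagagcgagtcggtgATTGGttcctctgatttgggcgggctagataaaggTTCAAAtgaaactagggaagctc
Ndc80, chr17:71526858-71527007, - strand: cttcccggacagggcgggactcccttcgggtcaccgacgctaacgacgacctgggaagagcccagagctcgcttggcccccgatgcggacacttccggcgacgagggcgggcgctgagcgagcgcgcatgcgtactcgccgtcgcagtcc

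Within the list, genes with and without these motifs had medians on the same side of 0. The median log2 fold change was -0.078 for the 29 tested genes with a CCAAT box and -0.031 for the 8 without, whereas it was -0.045 for the 15 with TTTGAA and -0.071 for the 22 without. Over all tested genes the medians with and without a CCAAT box were 0.0016 and 0.0024. For the features added later, it was -0.10 for the 6 tested genes with the CCAAT pair and -0.045 for the 31 without. It was -0.21 for the 4 with TTTAAA and -0.057 for the 33 without. No test was made of these medians. Top2a held 5 matches in the stretch shown and its level hardly differed between the groups. Plk1 held 1 match, besides TTTAAA, which is not marked, and was among the lowest. A relation of match number to fold change was not tested.

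Of the cyclins and their kinase, all 3 measured genes were lower and 1 had separate lower groups, against 48.8% and 8.19% of all genes. Ccnb2, a B-type cyclin with 3 evenly spaced CCAAT boxes, measured 11.89, 11.91 and 11.87 (log2 intensity) on vehicle arrays 1 to 3 and 11.76, 11.80 and 11.79 on DHA arrays 1 to 3. Its 3 DHA values lay just under its 3 vehicle values, a difference of -0.11 (SE 0.042, 95% interval -0.21 to -0.0052; limma adjusted p = 0.392). Cdk1, the catalytic partner of these cyclins, measured 11.39, 11.38 and 11.33 with vehicle and 11.23, 11.33 and 11.25 with DHA. Here vehicle replicate 3 and DHA replicate 2 met, so the groups overlapped (-0.097, interval -0.21 to 0.020). Ccna2, the cyclin of S phase and early mitosis, had -0.051 (interval -0.16 to 0.055). The CDC25 phosphatases remove the inhibitory phosphates from CDK1. Cdc25c measured 8.59, 8.56 and 8.52 with vehicle and 8.32, 8.41 and 8.36 with DHA, with no overlap (-0.19, SE 0.047; limma adjusted p = 0.204). Cdc25b had -0.036, with an interval from -0.19 to 0.12.

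All 3 genes that the list holds as mitotic kinases outside the checkpoint were lower, where 48.8% of all genes were. Other kinase genes of mitosis and its entry, read from the related lists described below, differed in sign. Aurkb had -0.065, Mastl -0.053, Chek2 -0.16, Plk4 0.023 and Aurkc 0.49, all with overlapping groups. Aurkc was dim, with vehicle values from 5.14 to 5.85 and an SE of 0.18. Wee1 had -0.26 with separate lower groups and Chek1 0.15 with separate higher groups, which 8.19% and 7.64% of all genes had. Plk1, which acts at centrosomes, kinetochores and the midzone, measured 11.60, 11.59 and 11.65 with vehicle and 11.28, 11.43 and 11.37 with DHA. Every DHA array lay at least 0.159 below every vehicle array, and the DHA level was 0.84 of the vehicle level (log2 fold change -0.25, SE 0.055, 95% interval -0.39 to -0.12; limma adjusted p = 0.1596). Aurka, which encodes the centrosomal and spindle kinase Aurora A, measured 10.19, 10.13 and 10.17 with vehicle and 9.94, 9.95 and 9.98 with DHA. Its groups were again apart, with a spread inside each group smaller than the gap between them (-0.20, SE 0.044; limma adjusted p = 0.161). Nek2, a kinase that separates the centrosomes, had -0.064 (interval -0.17 to 0.046). For every gene whose groups did not overlap, the exact two-sided permutation p was 0.1, the smallest that 3 against 3 arrays can give.

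**Figure D2:**
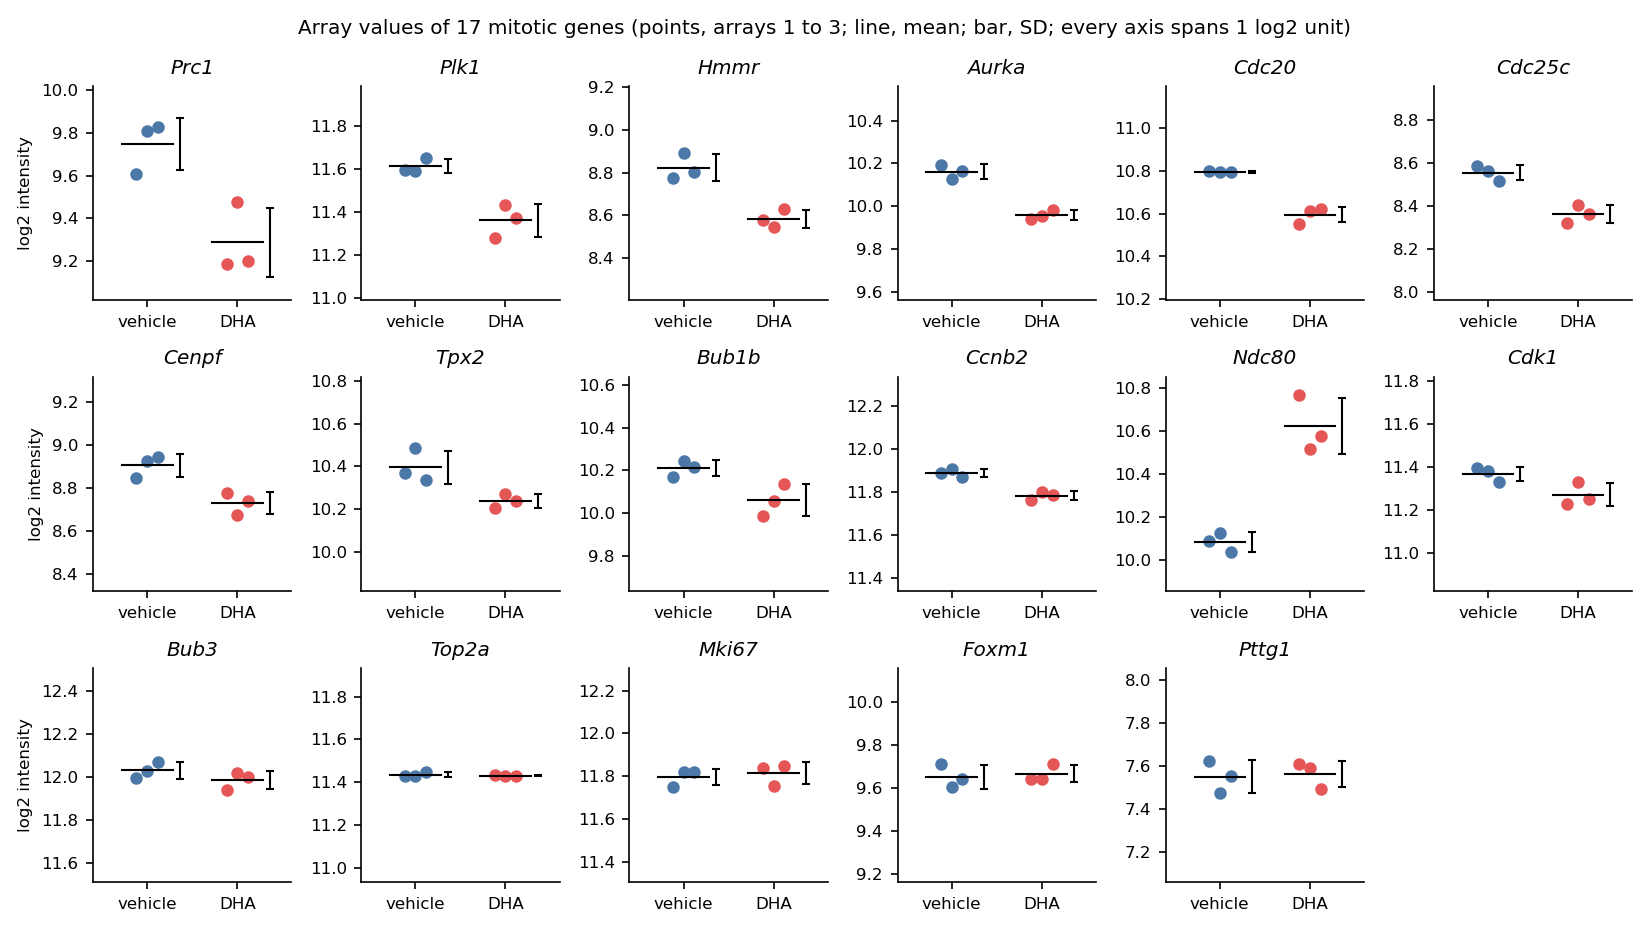
Log2 intensity (vertical axes, each spanning 1 log2 unit) on the 3 vehicle arrays (blue) and 3 DHA arrays (red) for 17 mitotic genes; lines are group means and bars are SDs (n = 3). In the first 10 panels, Prc1 to Ccnb2, the DHA points all lie under the vehicle points, in the Ndc80 panel they lie above, and in the last 6, Cdk1 to Pttg1, the groups overlap.

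Among the 7 checkpoint and APC/C genes, 6 had a log2 fold change below 0, against 48.8% of all genes. Of the 7, 2 (Cdc20 and Bub1b) had separate lower groups, against 8.19%. Cdc20, the APC/C activator that the checkpoint inhibits, measured 10.80, 10.79 and 10.79 with vehicle and 10.55, 10.61 and 10.62 with DHA. The vehicle arrays were almost equal and every DHA array lay below them (-0.20, SE 0.044, 95% interval -0.30 to -0.095; limma adjusted p = 0.161). Bub1b, which encodes the checkpoint protein BUBR1, measured 10.17, 10.25 and 10.21 with vehicle and 9.99, 10.06 and 10.14 with DHA. The highest DHA array and the lowest vehicle array lay only 0.034 apart (-0.15, SE 0.055; limma adjusted p = 0.354). Ttk, the kinase MPS1 that starts checkpoint signalling, had -0.078, Mad2l1, which encodes MAD2, had -0.057, and Ube2c, an APC/C ubiquitin-conjugating enzyme, had -0.045, all with overlapping groups. Bub3, which docks BUB proteins on kinetochores, measured 11.99, 12.03 and 12.07 with vehicle and 11.94, 12.02 and 11.997 with DHA, and these values overlapped (-0.045, interval -0.16 to 0.068). Bub1, its kinase partner, had a log2 fold change of 0.0010 (interval -0.16 to 0.16).

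Kinetochore and centromere genes were split, with 4 lower and 4 higher of 8, where 48.8% of all genes were lower. Cenpf, a kinetochore and nuclear matrix protein, measured 8.85, 8.93 and 8.95 with vehicle and 8.78, 8.67 and 8.74 with DHA, without overlap (-0.18, SE 0.052; limma adjusted p = 0.269). Cenpa, the histone variant that marks centromeres, had a larger difference of -0.24 but groups that overlapped, since DHA replicate 2 (10.60) lay above vehicle replicate 1 (10.55). Cenpk and Cenpn, of the constitutive centromere network, had 0.15 and 0.030, and the kinetochore motor Cenpe had 0.030, with an interval from -0.071 to 0.13.

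All 4 subunit genes of the NDC80 complex, which couples kinetochores to microtubules, were measured. Ndc80, its microtubule-binding subunit, measured 10.09, 10.12 and 10.03 with vehicle and 10.77, 10.52 and 10.58 with DHA. The lowest DHA array lay 0.39 above the highest vehicle array, and the DHA level was 1.45 times the vehicle level (log2 fold change 0.54, SE 0.074, 95% interval 0.36 to 0.72; limma adjusted p = 0.0660). Nuf2, its dimer partner, had -0.13 (interval -0.27 to 0.0093), Spc25 had -0.091 (interval -0.23 to 0.050) and Spc24, the fourth subunit, had 0.039 (interval -0.14 to 0.21). The within-array difference Ndc80 minus Nuf2 ran from 0.0024 to 0.12 with vehicle and from 0.55 to 0.90 with DHA, a shift of 0.67. The shift was 0.63 for Ndc80 minus Spc25, 0.50 for Ndc80 minus Spc24 and -0.040 for Nuf2 minus Spc25. These shifts are a description with no test, since Ndc80 was singled out after its values were seen. Ndc80 passed the adjusted threshold under quantile normalization, a filter at the 50th percentile, and trend and robust moderation (limma adjusted p = 0.0266, 0.0353 and 0.0354), and in none of the other 14 alternatives, where it reached up to 0.359. Its log2 fold change stayed between 0.47 and 0.59 in all 17. Its promoter window held no match to CCAAT or TTTGAA. The same was true of Anln, Mad2l1, Ncaph, Nuf2, Nusap1, Pttg1 and Sgo1, of which Anln and Nusap1 had separate lower groups.

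Spindle genes, 6 in number, held 4 of the 14 genes with separate lower groups, which 8.19% of all genes had. Hmmr, a microtubule-associated protein of spindle poles whose window holds 5 ATTGG matches, measured 8.77, 8.89 and 8.80 with vehicle and 8.58, 8.55 and 8.63 with DHA. All DHA arrays lay at least 0.146 lower (-0.24, SE 0.052, 95% interval -0.36 to -0.12; limma adjusted p = 0.1599). Tpx2, which activates Aurora A on the spindle, measured 10.37, 10.48 and 10.34 with vehicle and 10.21, 10.27 and 10.24 with DHA, also apart (-0.16, SE 0.055; limma adjusted p = 0.336). Ckap2, a microtubule-stabilising protein, had -0.24 with separate groups, but its vehicle arrays spread from 9.44 to 9.84 and its interval reached 0.0049. Nusap1, a microtubule-bundling protein, had -0.093 with a gap of 0.012 between the groups. Dlgap5, a kinetochore fibre protein, had -0.11 with 1 equal value at the edge of both groups, and Ckap5, a microtubule polymerase, had 0.025.

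The lowest log2 fold change in the list was that of a cytokinesis gene, Prc1, which encodes the protein that bundles antiparallel microtubules of the spindle midzone. It measured 9.61, 9.81 and 9.83 with vehicle and 9.19, 9.48 and 9.20 with DHA. DHA replicate 2 was the highest of its group and still lay 0.13 under the lowest vehicle array, and the DHA level was 0.73 of the vehicle level (log2 fold change -0.46, SE 0.099, 95% interval -0.69 to -0.22; limma adjusted p = 0.155). Between vehicle replicate 3 and DHA replicate 2, which share a title number, Prc1 differed by -0.35. Anln (anillin, -0.11) and Ect2, the exchange factor that activates RhoA (-0.10), also had separate lower groups, by gaps of 0.018 and 0.013. Racgap1, a centralspindlin subunit that recruits ECT2, had -0.023 (interval -0.13 to 0.083).

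None of the 9 genes for chromosome structure and cohesion had separate groups, which 8.19% of all genes had lower and 7.64% higher. Top2a, DNA topoisomerase II alpha, measured 11.43, 11.43 and 11.45 with vehicle and 11.43, 11.43 and 11.43 with DHA. Its values coincided across groups, and the interval of the difference ran from -0.10 to 0.091. Mki67, which encodes the proliferation marker Ki-67, measured 11.75, 11.82 and 11.82 with vehicle and 11.84, 11.75 and 11.85 with DHA, again overlapping (0.017, interval -0.10 to 0.13). The condensin genes had 0.064 (Smc4), -0.00070 (Ncaph), -0.0066 (Smc2) and -0.043 (Ncapd2). Pttg1, which encodes securin, the inhibitor of separase, measured 7.62, 7.47 and 7.55 with vehicle and 7.61, 7.59 and 7.49 with DHA (0.013, interval -0.13 to 0.15). Espl1, separase itself, had -0.14 with an interval from -0.30 to 0.025, and Sgo1, which protects centromeric cohesion, had -0.0054. The signs of Top2a, Mki67, Ncaph, Smc2, Pttg1 and Sgo1, and elsewhere in the list of Bub1, Cdc25b, Cenpn, Racgap1 and Foxm1, changed with the array left out.

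Foxm1, the forkhead factor that drives G2/M transcription, measured 9.71, 9.60 and 9.64 with vehicle and 9.64, 9.64 and 9.71 with DHA. The groups covered the same range (0.014, interval -0.11 to 0.13; limma adjusted p = 0.937), in contrast to the separate groups of Plk1, Aurka, Cdc20 and Prc1. The difference between Foxm1 and these genes was not tested.

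The mean level of the mitotic genes was lower on each of the 3 DHA arrays than on any vehicle array, with more spread among the vehicle arrays. The mean level over the 43 genes was 10.23, 10.29 and 10.27 on vehicle arrays 1 to 3 and 10.19, 10.20 and 10.19 on DHA arrays 1 to 3. Vehicle replicate 1 was the vehicle array nearest to the DHA arrays, and the group means were 10.26 ± 0.031 and 10.19 ± 0.0036 (SD, n = 3). The lowest of the 6 arrays was DHA replicate 1 for 15 genes, vehicle replicate 1 for 8, DHA replicates 2 and 3 for 7 each, and vehicle replicates 2 and 3 for 3 each. In the 9 comparisons of a DHA with a vehicle array, between 23 and 36 of 43 genes were lower, against 44.4% to 49.9% of all genes. The 23 was DHA replicate 2 against vehicle replicate 1, and the pair with the same title number had 33. Vehicle arrays also differed among themselves, with 13 of 43 genes lower in vehicle replicate 2 than in vehicle replicate 1, against 48.6% of all genes. The median difference of that pair over the 43 genes was 0.064, as large as the median of -0.064 between the groups. It was 0.044 for vehicle replicate 3 minus 1 and -0.0195 for 3 minus 2. Between DHA arrays it was 0.0008 (2 minus 1), 0.0095 (3 minus 1) and 0.002 (3 minus 2).

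**Figure D3:**
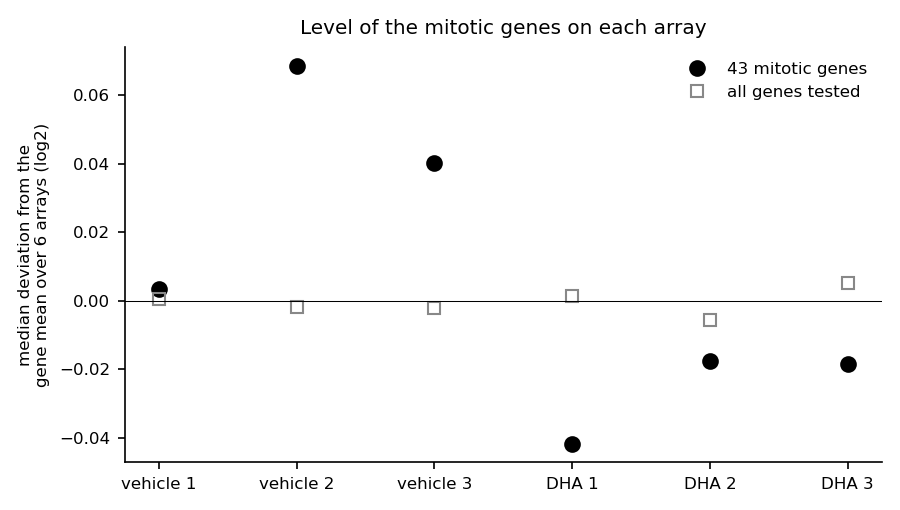
Median deviation of each gene from its own mean over the 6 arrays (log2, vertical axis) for the 43 mitotic genes (filled circles) and all genes tested (open squares) on each array. The circles lie at 0.0034, 0.069 and 0.040 on the vehicle arrays and at -0.042, -0.018 and -0.018 on the DHA arrays, whereas the squares lie between -0.0057 and 0.0052.

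Other genes of mitosis and of the preceding phases were read from 8 further lists, of whose genes none passed the adjusted threshold in the limma fit described above. Chromosomal passenger and mitotic kinesin genes had the lowest median, -0.11. At an unadjusted limma p at or under 0.05, 9 of 18 (50%) were lower and 1 (5.56%) higher. Over all genes, 6.08% were lower and 5.94% higher at that threshold. The chromokinesin Kif22 had -0.24 and the microtubule-depolymerising kinesin Kif2c -0.26 (limma adjusted p = 0.141 and 0.150). Mitotic entry regulators had a median of -0.053, with 4 of 17 (23.5%) lower and 1 (5.88%) higher at that threshold. Wee1, the kinase that inhibits CDK1, had -0.26 and Gtse1, a regulator of p53 and microtubules, -0.30 (limma adjusted p = 0.155 and 0.196).

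Kinetochore and CENP genes outside the list had a median of 0.039. At an unadjusted limma p at or under 0.05, 4 of 31 (12.9%) were lower and 5 (16.1%) higher, against 6.08% and 5.94% of all genes. Nsl1, a subunit of the MIS12 complex that anchors NDC80, had 0.29 and the centromere protein gene Cenpl -0.32 (limma adjusted p = 0.177 and 0.234). The APC/C list had a median of -0.032, with 4 of 17 (23.5%) lower and 2 (11.8%) higher at that threshold. The higher genes were Fbxo5 (0.24), which encodes the APC/C inhibitor EMI1 made from late G1 onwards, and the subunit gene Anapc16 (0.4994; limma adjusted p = 0.137 and 0.141). Cohesin genes (median 0.011, 0 of 15 at that threshold) and condensin II genes (-0.012, 0 of 3) were near the median of all genes. In the first, Sgo2a had -0.14 and the cohesin loader Nipbl 0.092, and in the second, Ncaph2 had -0.046 and Ncapd3 0.030.

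MuvB, DREAM and MYB regulators had a median of 0.034, and by sign alone 5 of 16 were lower and 11 higher. At an unadjusted limma p at or under 0.05, 1 (6.25%) was lower and 0 higher, against 6.08% and 5.94% of all genes. Tfdp1, the E2F dimer partner DP1, had -0.21 (limma adjusted p = 0.223) and the NF-Y subunit gene Nfyc 0.086. Replication licensing and fork genes had a median of 0.040, and by sign alone 11 of 36 were lower and 25 higher. At that threshold 0 were lower and 4 (11.1%) higher. Of the 36, 9 (25%) had separate higher groups, against 7.64% of all genes, and 2 (5.56%) separate lower groups, against 8.19%. Cdt1, the licensing factor, had 0.39 (SE 0.053; limma adjusted p = 0.0660). It passed under the same 3 alternatives as Ndc80, with limma adjusted p = 0.0380 after quantile normalization, 0.0353 with the 50th percentile filter and 0.0351 with trend and robust moderation, and in the other 14 its adjusted p reached up to 0.342. Orc5, of the origin recognition complex, had 0.32 (SE 0.086; limma adjusted p = 0.236). No difference between these lists and the mitotic genes was tested.

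**Figure D4:**
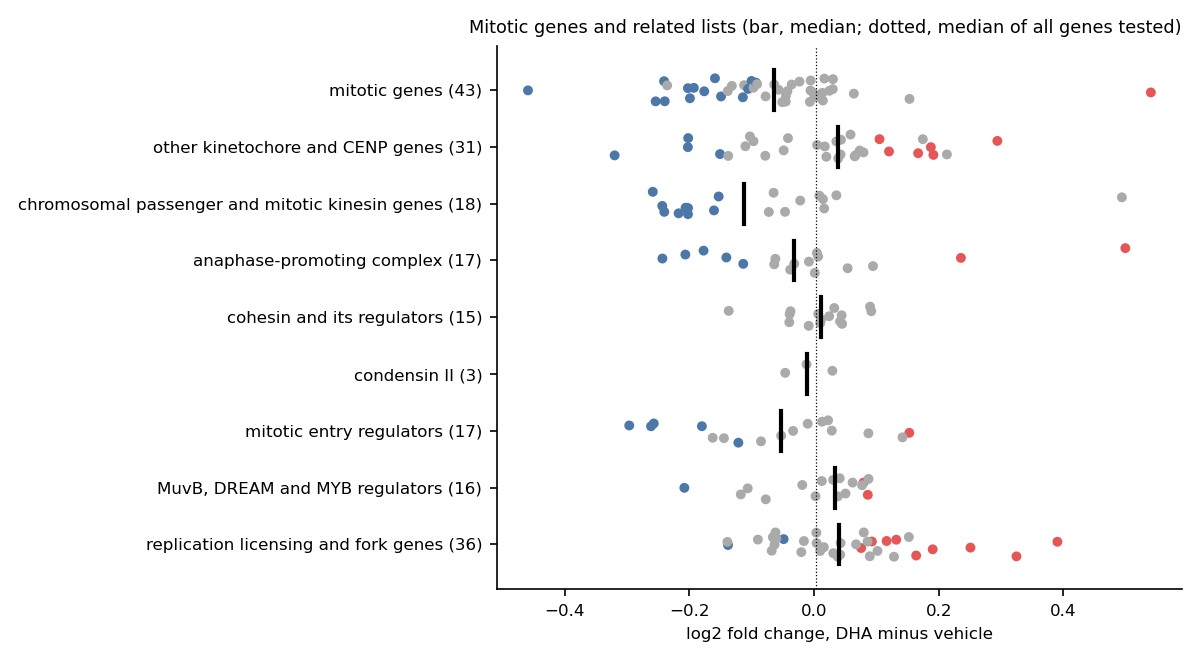
Log2 fold change (DHA minus vehicle, horizontal axis) of every tested gene of the mitotic list and of 8 related lists, with the number tested in brackets; blue and red points have 3 DHA arrays all lower or all higher, black bars are medians and the dotted line is the median of all genes tested. The medians run from -0.11 for passenger and kinesin genes to 0.040 for replication genes, with the mitotic genes at -0.064.

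The arrays were close to one another, with Pearson correlations across probe sets from 0.9925 to 0.9947 and medians from 5.25 to 5.31. Values equal to the last deposited digit on some arrays occurred in 11 of the 43 genes and in 35.2% of all genes tested, and Ncaph was equal on all 3 DHA arrays. Such ties lower a gene's measured spread. Defining markers of B-cell precursors were bright, with Igll1 at 12.98, Cd79a at 12.71 and Ebf1 at 11.77, except Vpreb1 at 4.78, close to the filter of 4.52. Cd3e, Cd3g, Cd8a, Ncr1, S100a8 and Pf4 lay under that filter. The summed level (log2) of 6 T and NK cell markers was 7.36 to 7.38 with vehicle and 7.40 to 7.52 with DHA, of 4 erythroid and megakaryocyte markers 7.20 to 7.22 and 7.25 to 7.29, and of 4 stromal markers, mostly Pecam1 at 9.43, 9.60 to 9.67 and 9.78 to 9.83. For 6 myeloid markers the ranges overlapped, at 7.22 to 7.35 and 7.27 to 7.36. The part of these markers in the values of the mitotic genes was not tested.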

How the data were processed

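The authors deposited log2 intensities, 1 per probe set and sample, for biotin-labelled RNA on Affymetrix arrays. RMA and Partek 6.6 were used, per the submitters' processing notes, without settings or a genome build. RMA tends to understate the fold changes of dim genes. Genes came from the platform annotation, and Entrez identifiers gave current RefSeq symbols (GRCm38.p6): 23521 of 41345 had 1 gene, 1814 several and 16010 none named. The brightest single-gene probe set by 6-array mean stood for a gene, although no mitotic gene had more than 1 of these. Probe sets of several genes were not read, of which Top2a had 2 and Nusap1 and Ckap5 had 1 each. Genes under the 30th percentile of gene means (4.52) were left out.

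DHA was compared with vehicle with limma 3.58.1 in R 4.3.3 (eBayes, two-sided, Benjamini-Hochberg over 15526 genes, 4 residual and 2.77 prior degrees of freedom). Intervals are unadjusted 95% intervals. Array number limits the precision. In data simulated for this comparison with 15526 genes, 13.8% of simulated log2 changes of 0.25 were recovered and 87.2% of those of 0.5. The simulation changed 200 genes, in equal numbers by 0.25, 0.5, 1 and 2, with independent normal noise. Many large changes ease the adjusted threshold, and only 14 genes passed it in the real data. These shares therefore need not hold for the real arrays.

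The mitotic genes and the lists were chosen with earlier results of these data known. The naming rule took every mitotic gene, the 2 genes of lowest p in each related list and any that passed; array values are given for separate lower groups with an unadjusted p at or under 0.05 and for Cdk1, Top2a, Mki67, Foxm1, Bub3 and Pttg1 (the rule also held Ccnb1, which has no value here). Ndc80, Cenpa, Spc24, Aurkb, Aurkc, Mastl, Plk4, Chek1, Chek2 and the shown promoters were chosen after their values were seen. Replicate numbers follow accession order.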

Additional observations from a re-analysis of the deposited data

How the results depend on the processing

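No paired analysis was possible because the 2 groups share only 1 number in their titles, and replicates were numbered by accession. The median log2 fold change of the mitotic genes ranged from -0.088 to -0.057 and their mean difference from -0.087 to -0.057 on leaving out 1 array, and the median was -0.071 without Ndc80, an alternative chosen after seeing the data. The count of lower genes at an unadjusted p at or under 0.05 then ranged from 7 to 12 and the count with separate lower groups from 14 to 25, where fewer arrays separate more easily by construction. At an unadjusted p at or under 0.01, 6 were lower (1.95% of all genes).

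Genes called over the whole array, 14, ranged from 0 to 23 on leaving out 1 array. They numbered 5 without a filter and 62 when dim genes up to the 50th percentile were left out, 63 after quantile normalization and 52 after median centring, 62 with trend and robust moderation, 1 with no moderation, 41 with a term for the shared title number, 0 without both arrays of that number (1564 at an unadjusted p under 0.05), and 80 at an adjusted p of 0.1. Apart from fewer genes, fewer arrays or a looser threshold, the cause was not tested.

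Medians of related lists ranged, on leaving out 1 array, from 0.015 to 0.057 for kinetochore and CENP genes, -0.14 to -0.089 for passenger and kinesin genes, -0.058 to -0.019 for APC/C genes, 0.0085 to 0.052 for cohesin, -0.029 to 0.051 for condensin II, -0.080 to -0.021 for mitotic entry regulators, 0.013 to 0.051 for MuvB, DREAM and MYB regulators and 0.016 to 0.060 for replication genes. Quantile normalization gave -0.013 for APC/C genes, and condensin II was 0.062 without both arrays of the shared number.

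Of the 43 mitotic genes, 32 kept their sign in all 17 alternatives. Those with separate groups could not reverse on leaving out an array, so this adds nothing for them. Ranges with a reversal on leaving out 1 array were -0.084 to 0.0048 for Cdc25b, -0.066 to 0.051 for Bub1, -0.020 to 0.057 for Cenpn, -0.025 to 0.050 for Pttg1, -0.023 to 0.028 for Sgo1, -0.052 to 0.033 for Smc2, -0.032 to 0.031 for Ncaph, -0.0091 to 0.00068 for Top2a, -0.0061 to 0.046 for Mki67, -0.036 to 0.00095 for Racgap1, -0.011 to 0.045 for Foxm1, -0.1023 to 0.0096 for Ncaph2 and -9.8e-05 to 0.075 for Ncapd3. Other reversals were Bub1 after median centring (-0.0019), Sgo1 (0.0045), Smc2 (0.00074) and Ncaph (0.011) after quantile normalization, Sgo1 (0.0057) and Ncaph (0.00037) with array weights, and Smc2 (0.033), Ncaph (0.031) and Top2a (0.0014) without both arrays of the shared number. The cause was not tested.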
